A study of Mus musculus with 6 samples.

Results

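Genes of protein folding in the endoplasmic reticulum (ER) and of the unfolded protein response were compared in peritoneal macrophages (PMs) from control and diseased-BWF1 mice. The set was a list of 34 genes taken by symbol, out of 32879 genes with at least 1 counted transcript record, and 31 of the 34 had enough counts to be among the 10505 genes tested. Control mice were non-autoimmune [NZW × BALB/c]F1 females, aged 33, 33 and 30 weeks. Diseased-BWF1 mice were [NZB × NZW]F1 females, aged 31, 31 and 34 weeks, with antibodies against double-stranded DNA and severe proteinuria. Each group had 3 mice with 1 library each, from PMs sorted as F4/80+ CD11b+ cells. Disease and the differing parent (NZB or BALB/c) cannot be told apart in this design.

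The ER is where secreted, membrane and lysosomal proteins enter the secretory pathway and fold. BiP, encoded by Hspa5, binds unfolded chains, calnexin and calreticulin hold glycoproteins that carry a trimmed sugar, and protein disulfide isomerases form and exchange disulfide bonds. Chains that do not fold are moved back to the cytosol and degraded, which is called ER-associated degradation. When unfolded chains build up, the sensors IRE1, PERK and ATF6 start the unfolded protein response: IRE1 removes a short intron from Xbp1 mRNA, PERK slows translation while Atf4 mRNA is still translated, and ATF6 is cut to release a transcription factor. Macrophages secrete proteins and degrade what they engulf, and this response is known to be active at a basal level in many secreting cells. The question addressed here was whether any branch of this system differed between PMs of the groups.

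The annotated promoters of several members hold the DNA elements through which this response acts, and they are shown because the members below are read by branch. The ER stress response element (ERSE, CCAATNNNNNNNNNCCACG) is read by NF-Y together with ATF6, ERSE-II (ATTGGNCCACG) is a related element, and the C/EBP-ATF response element (CARE, TGATGNAA) is bound by ATF4. Promoter windows ran from 250 bases before to 50 bases after the annotated start in RefSeq (GRCm38.p6, the C57BL/6J reference and not the strains studied), were found for 28 of the 34 members, and were searched on both strands. The sequences below read along the gene's strand, with 12 bases on each side and the match in capitals:
Hspa5, chr2:34772013-34772055 on the + strand, ERSE from 65 to 47 bases before the start: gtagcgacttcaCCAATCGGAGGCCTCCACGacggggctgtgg
Creld2, chr15:88819508-88819550 on the + strand, ERSE on the other strand: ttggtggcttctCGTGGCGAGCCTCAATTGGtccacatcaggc
Calr, chr8:84847063-84847105 on the - strand, ERSE on the other strand: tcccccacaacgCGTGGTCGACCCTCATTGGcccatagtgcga
Canx, chr11:50325788-50325830 on the - strand, ERSE: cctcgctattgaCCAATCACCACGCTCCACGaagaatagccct
Pdia6, chr12:17266479-17266521 on the + strand, ERSE: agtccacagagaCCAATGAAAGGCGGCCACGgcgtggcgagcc
Herpud1, chr8:94386365-94386399 on the + strand, ERSE-II: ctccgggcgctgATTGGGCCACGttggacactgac
Asns, chr6:7693213-7693244 on the - strand, CARE: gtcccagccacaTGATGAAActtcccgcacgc

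An ERSE was found in the windows of 8 members (Hspa5, Hsp90b1, Dnajc3, Creld2, Calr, Canx, Pdia6 and Syvn1), 28.6% of the 28, against 0.137% of 27025 genes with a window. An ERSE-II was found for Dnajb11 and Herpud1, 7.14% against 0.0444%. A CARE was found for Herpud1, Trib3, Chac1 and Asns, 14.3% against 4.51%. The XBP1 element TGACGTGG was in none of the members' windows and in 0.714% of all, and its other strand shares the letters CCACG with the end of both ERSE forms. A match is a run of letters in the reference and was not shown to be bound. The members were listed as genes of ER folding and this response, so these shares describe the list and not these mice.

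Total counts ranged from 3629901 to 5003360 per mouse, of which 3376669 to 4604336 were on genes. Of the counts on genes, 3 counts stood for 0.652 to 0.888 CPM, the count rescaled to the same total in each library, a floor that covers counting error only. The library of control mouse 3 stood apart: its log2 CPM over all tested genes correlated with the other control libraries at r = 0.931 and 0.928, while those 2 correlated at 0.961 and the diseased-BWF1 libraries among themselves at 0.944 to 0.951. Results are therefore also given without it. The sorted cells carried macrophage markers. The 9 macrophage genes summed to 144134 to 193188 normalized counts in control and 121184 to 141147 in diseased-BWF1 mice, without overlap. Most of this sum was on Lyz2 in every mouse, and 0 of the 9 genes were called. The B cell markers reported here, 4 genes with a record, summed to 9.26 to 20.7 normalized counts in control and 2.02 to 11.3 in diseased-BWF1 mice. Plasma cells have a very large ER, and their markers (7 of 8 with a record) summed to 35.6 to 68.9 in control and 70.9 to 209 in diseased-BWF1 mice, mostly on Irf4, which macrophages also express. Of their defining markers, Jchain and Mzb1 had at most 3 counts in a library and Derl3 had 0 in all 6. Summed monocyte markers were 106 to 167 in control and 383 to 525 in diseased-BWF1 mice, and dendritic cell markers 168 to 322 and 35.3 to 68.9. Their part in the results below was not tested. In RNA from whole sorted populations, fewer cells of a type and less RNA per cell cannot be told apart.

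None of the 31 tested members passed the test in either direction. The test was edgeR's quasi-likelihood test on gene counts, with Benjamini-Hochberg adjustment over all tested genes, and a call needed both a change of 1.5-fold or more and an adjusted p below 0.05. Among all tested genes 128 were called, 1.22%, of which 42 were higher (0.4%) and 86 lower (0.819%). DESeq2 and limma-voom called 0 members as well, with 3 and 2 members under an unadjusted p of 0.05. At an unadjusted p under 0.05 there were 2 members, Pdia3 and Derl1, both lower in diseased-BWF1 mice. Among all tested genes 13.2% were under that value, 5.62% higher and 7.57% lower. DESeq2 called 370 of all genes, 3.07% of those with an adjusted p. Pdia3 had an adjusted p of 0.0238 there, with a change smaller than the fold minimum, and 3.19% of genes passed that adjusted p alone.

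The members' log2 fold changes, diseased-BWF1 over control, ran from -0.48 to 0.41 with a median of 0.03, and the median of all tested genes was 0.01. Fold changes were positive for 16 members and negative for 15, where 50.9% of all tested genes were positive. The 95% interval lay within a 1.5-fold change in both directions for 12 members, against 31.1% of all tested genes. For the other 19 members the interval reached past a 1.5-fold change, so a change of that size lay within the error of 3 mice in each group. In the plot of fold changes with their intervals, all 31 points lie inside the 1.5-fold lines, and the SE ranges from 0.12 to 0.44.

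**Figure D1:**
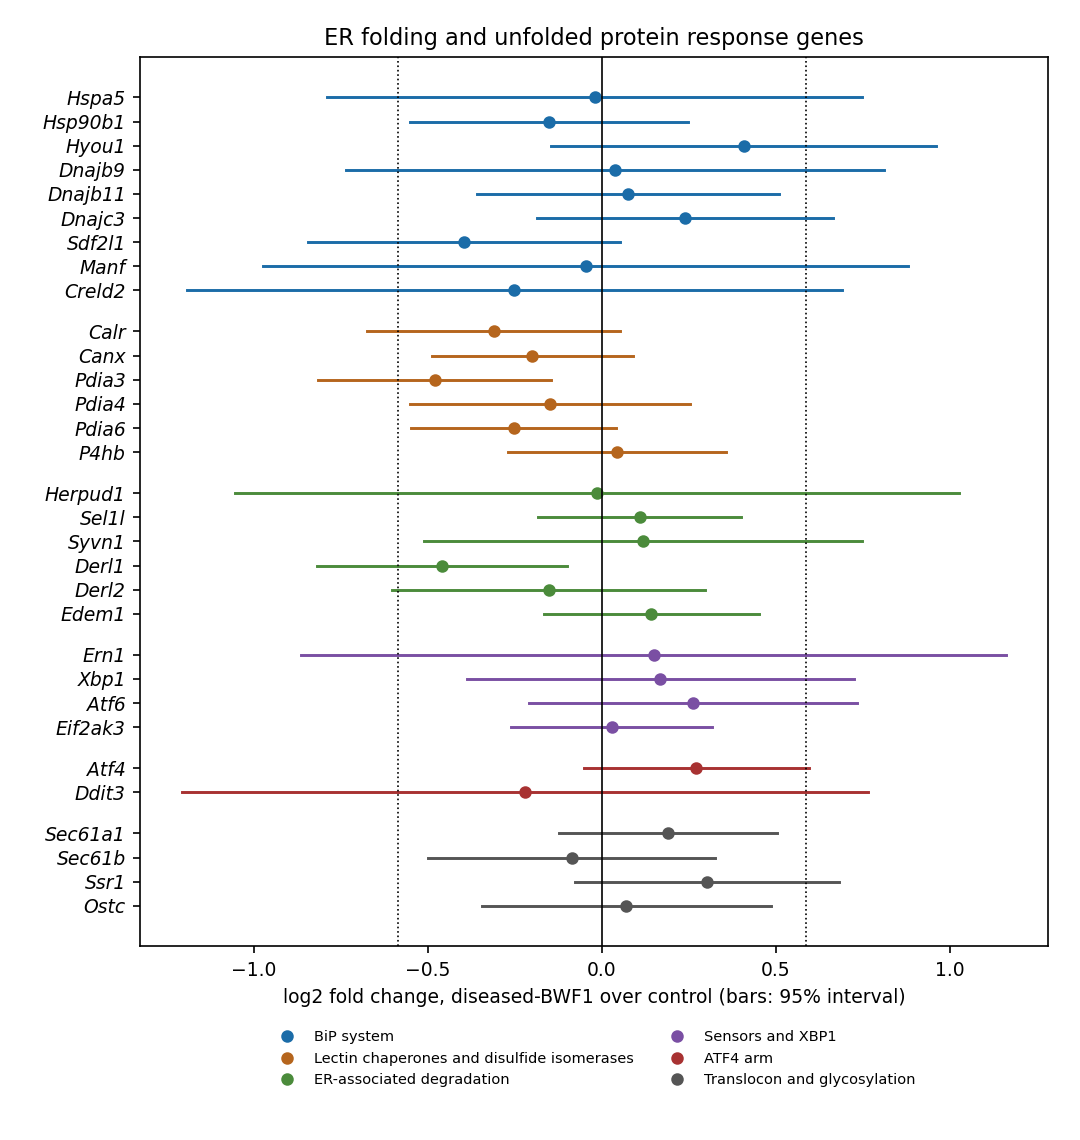
Log2 fold change of each of the 31 tested members, diseased-BWF1 over control mice, from edgeR (points), with 95% intervals (bars), coloured and grouped by branch. Dotted lines mark a 1.5-fold change in either direction. Only the intervals of Pdia3 and Derl1 leave out 0, and those of Herpud1, Creld2, Ddit3 and Ern1 are the widest.

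The BiP system holds the lumenal Hsp70 chaperone BiP and the proteins that work with it. Hspa5 (chromosome 2 from 34772090 to 34776529, GRCm38) had 3238, 3508 and 6960.1 normalized counts in control mice and 5682, 3617 and 4239 in diseased-BWF1 mice. The highest value was that of control mouse 3, and the groups overlapped. The means were 4569 ± 2075 (SD, n = 3) and 4513 ± 1059.8, with a log2 fold change of -0.02 (standard error, SE, 0.33; adjusted p = 0.989, edgeR). Its 95% interval ran from -0.79 to 0.75, so a 1.5-fold change in either direction lay inside it.

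All 9 BiP system members were tested, 4 with a positive and 5 with a negative fold change. Hyou1, an ER chaperone that exchanges the nucleotide of BiP, had the largest positive fold change of the members, 0.41 (SE 0.24, adjusted p = 0.522). It had 468, 629 and 756 normalized counts in control mice and 927, 606 and 928 in diseased-BWF1 mice, with diseased-BWF1 mouse 2 inside the control range. Of its counts 38.3% were on curated records and the rest on predicted ones. On the curated record alone, with 264, 192 and 0 raw counts in control and 457, 390 and 359 in diseased-BWF1 mice, the fitted log2 fold change was 1.504 (adjusted p = 0.70), so its size depended on which records were summed. Sdf2l1, a BiP-bound cofactor, had a log2 fold change in the other direction, -0.40 (SE 0.19, adjusted p = 0.443), with 462 ± 66.8 and 351 ± 74.4 normalized counts. The J-domain partners of BiP had log2 fold changes of 0.04 (Dnajb9), 0.08 (Dnajb11) and 0.24 (Dnajc3), and Hsp90b1, the Hsp90 of the ER known as GRP94, had -0.15. The secreted or retained ER stress proteins Manf and Creld2 had -0.05 and -0.25, with SEs of 0.40 for both.

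In all 9 of these genes control mouse 3 had the highest value of the control mice, where this mouse was highest in 40.8% of all tested genes. Manf had 249, 239.7 and 652 normalized counts in the control mice, a value in mouse 3 that was 2.67 times the mean of the others. The same ratio was 2.28 for Creld2, 2.06 for Hspa5 and 2.01 for Dnajb9. Diseased-BWF1 mouse 1 was the highest of its group in 6 of the 9, against 30.7% of all tested genes. The branch mean on the log2 CPM scale was 7.33, 7.55 and 8.20 in control mice and 7.96, 7.51 and 7.69 in diseased-BWF1 mice. The spread between mice of a group was thus larger than the difference of the group means, 0.03. Without control mouse 3 the median log2 fold change of the branch moved from -0.02 to 0.41, with 8 of 9 positive and an unadjusted p under 0.05 for Hyou1, Dnajc3 and Manf, all higher, while none was under an adjusted 0.05. In that fit 13.7% of all genes had an unadjusted p under 0.05, 6.29% higher and 7.42% lower.

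**Figure D2:**
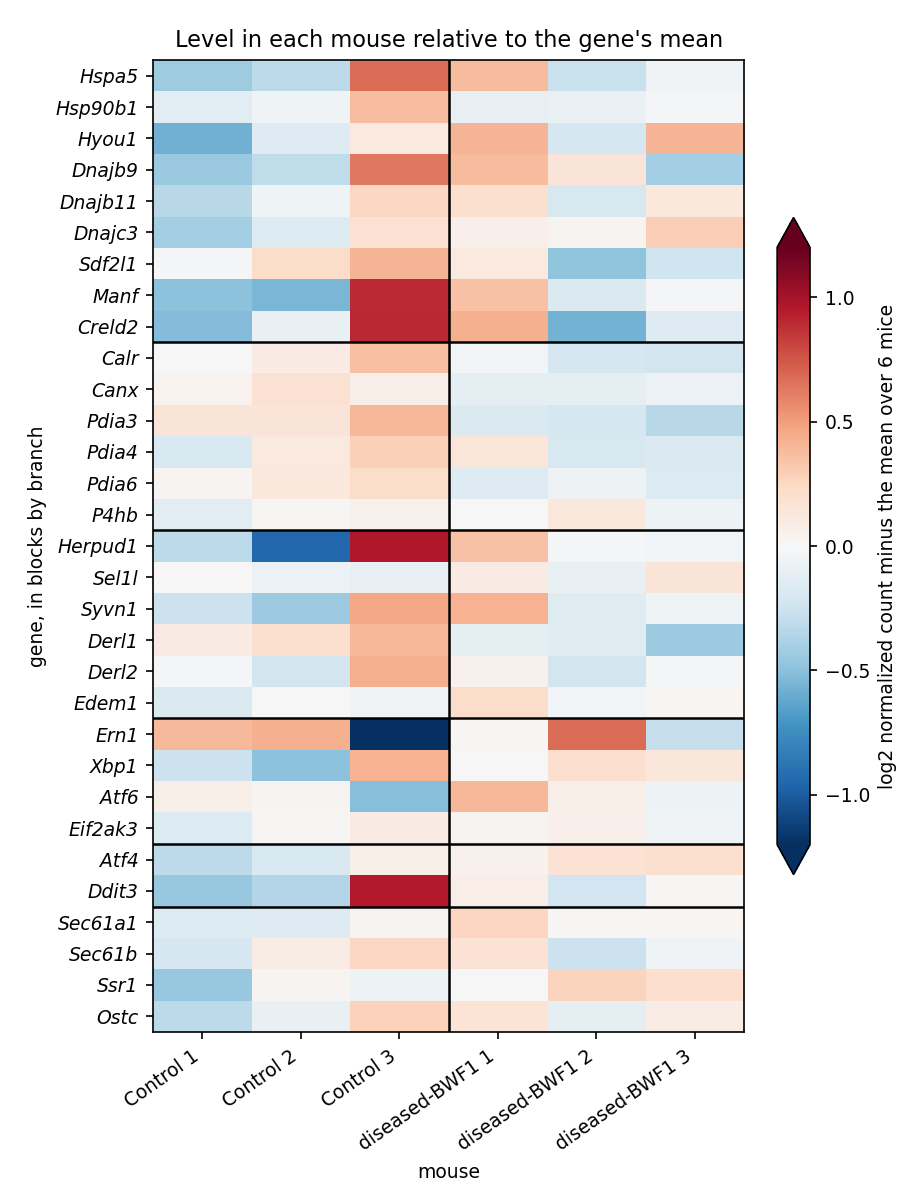
Level of each tested member in each mouse as log2 normalized count minus the gene's mean over 6 mice (colour), with members in rows by branch and mice in columns. Control 3 is the darkest red column over most of the BiP system and for Herpud1 and Ddit3, and the darkest blue for Ern1.

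The lectin chaperones and disulfide isomerases were the branch whose groups overlapped in the smallest share of its tested members, 2 of 6. Of 6 members 5 had a negative fold change, and in 4 of them (Calr, Canx, Pdia3 and Pdia6) every diseased-BWF1 mouse lay below every control mouse. Groups that do not overlap in this direction were found for 11.2% of all tested genes. The median log2 fold change was -0.23, and it was -0.20 without control mouse 3. None of the 6 passed the test. The 18 further genes of this branch that were tested lay in the other direction, with 16 positive and a median of 0.14. Groups did not overlap in 5 of them, all higher, against 9.59% of all tested genes in that direction.

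Pdia3, also known as ERp57, is the isomerase that works with calnexin and calreticulin and is part of the complex that loads peptides onto MHC class I. Pdia3 is at chromosome 2 from 121413902 to 121438687. Its normalized counts were 4617, 4637 and 5479.9 in control mice and 3691, 3597 and 3291 in diseased-BWF1 mice, and the groups did not overlap. The means were 4911 ± 492 and 3526 ± 209, a log2 fold change of -0.48 (SE 0.14, 95% interval -0.81 to -0.15). The unadjusted edgeR p was 0.011 and the adjusted p was 0.198. Leaving out any 1 mouse kept the fold change between -0.53 and -0.39.

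Calr, the soluble calreticulin, had 5297, 5659 and 6797 normalized counts in control mice and 5177, 4603 and 4555 in diseased-BWF1 mice. Calr thus had a log2 fold change of -0.31 (SE 0.16, adjusted p = 0.462). Canx, the membrane-bound calnexin, had 3143, 3462 and 3214 against 2838, 2813 and 2917, a narrow spread in both groups, with a log2 fold change of -0.20 (SE 0.12, adjusted p = 0.547). Pdia6, an isomerase that also acts on the sensors, had 1629, 1739 and 1863 against 1435, 1532 and 1429 and a log2 fold change of -0.25 (SE 0.13, adjusted p = 0.46). Pdia4 had -0.15 with overlapping groups. P4hb, the abundant isomerase PDI, had 3432 ± 222 and 3546 ± 232 normalized counts, and its fold change of 0.04 had an interval from -0.27 to 0.36, within a 1.5-fold change. The values of control mouse 3 in these genes were 0.973 to 1.24 times the mean of the other controls, against 1.23 to 2.67 in the BiP system.

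The 8 members whose promoter window held an ERSE and the 2 with an ERSE-II fell on both of these branches and beyond them. Over these 10 the median log2 fold change was -0.09, and it was 0.04 over the 15 tested members with a window and no match. In 9 of the 10 control mouse 3 was the highest control, and the median of its ratio to the other controls was 1.37. In the members without a match it was highest in 11 of 15, with a median ratio of 1.23. These counts describe the list and were not tested.

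In ER-associated degradation, 3 of 6 members had a positive and 3 a negative fold change, with a median of 0.05. Derl1 encodes a derlin, a membrane protein of the channel through which chains leave the ER, and lies on chromosome 15 from 57869502 to 57892418. It had 1228, 1315 and 1518 normalized counts in control mice and 1062, 1043 and 852 in diseased-BWF1 mice, without overlap. The log2 fold change was -0.46 (SE 0.15, 95% interval -0.82 to -0.10), with an unadjusted edgeR p of 0.019 and an adjusted p of 0.255. Another gene shares 3.88% of the 75-base sequences of its transcripts. The paralog Derl2 overlapped between groups, with 189.9 ± 45.7 and 171 ± 16.1 normalized counts.

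Sel1l, Syvn1 and Edem1 belong to the same route, as the adaptor and the ubiquitin ligase HRD1 of the complex and as a lectin that brings it glycoproteins. Their log2 fold changes were 0.11, 0.12 and 0.14, all with overlapping groups. Herpud1, a stress-induced organizer of that complex, had 290.4, 187 and 704 normalized counts in control mice and 459.8, 355 and 353 in diseased-BWF1 mice. The control values spanned the diseased-BWF1 values on both sides, and the log2 fold change of -0.02 had a SE of 0.44, the largest of the tested members. Control mouse 3 had 2.95 times the mean of the other controls. Without this mouse Herpud1 had a fold change of 0.70 on the log2 scale, with an adjusted p of 0.27.

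**Figure D3:**
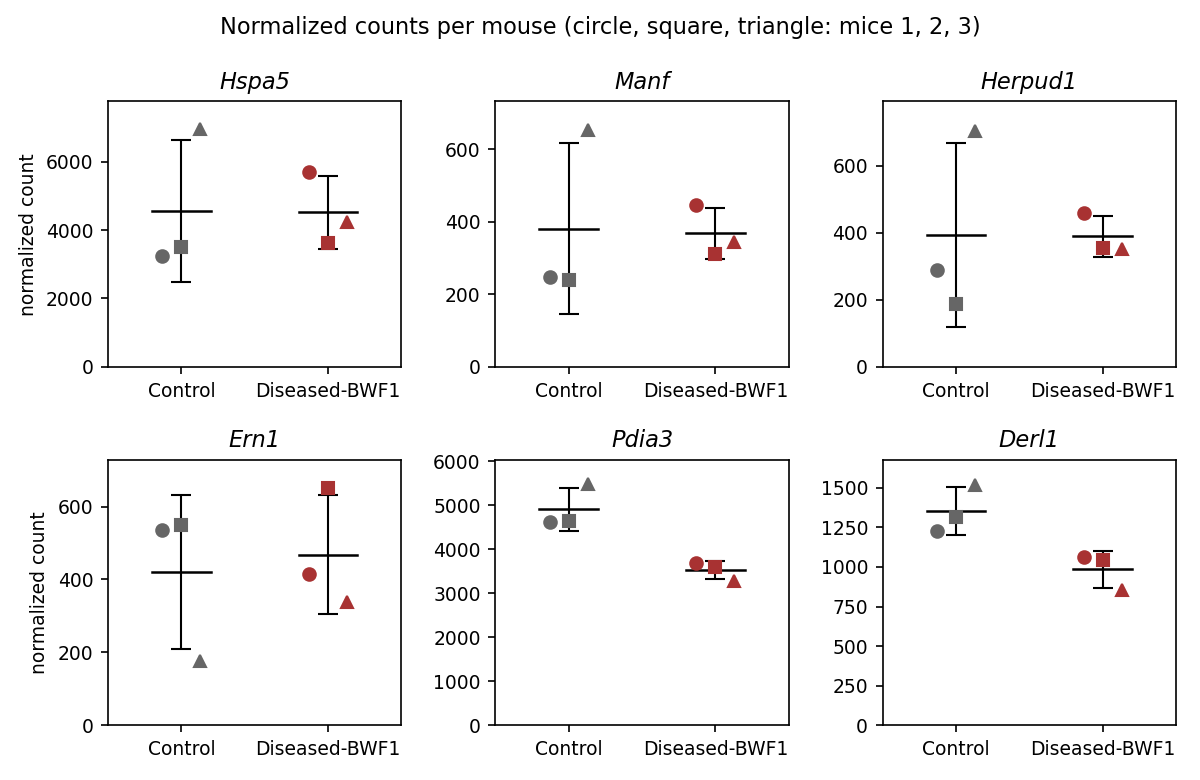
Normalized counts of Hspa5, Manf, Herpud1, Ern1, Pdia3 and Derl1 in each mouse (points), with the mean (long line) and SD (bars) of each group of 3. Control mouse 3 (grey triangle) lies above the other controls in Hspa5, Manf and Herpud1 and below all other mice in Ern1, while in Pdia3 and Derl1 the groups do not overlap.

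The sensors and Xbp1 were counted in every library, all 4 with a positive fold change, and none passed the test. Ern1, which encodes IRE1 alpha, had 535, 549 and 176 normalized counts in control mice and 415, 650.2 and 338 in diseased-BWF1 mice. Control mouse 3 was lowest of all 6, at 0.324 times the mean of the other controls, opposite to its high BiP. The log2 fold change was 0.15 (SE 0.43, adjusted p = 0.917), and without that mouse it was -0.21. Atf6 had 505, 494 and 338 against 637, 506 and 462, again with control mouse 3 lowest, and a log2 fold change of 0.26 (SE 0.20, adjusted p = 0.636). Only 38.4% of its counts were on curated records. Eif2ak3, which encodes PERK, was among the least variable members, with 204, 231 and 246 against 235, 239 and 222 normalized counts. Its log2 fold change of 0.03 had a 95% interval from -0.26 to 0.32, within a 1.5-fold change in both directions.

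Xbp1 (chromosome 11 from 5520641 to 5525993) had 846, 719 and 1346 normalized counts in control mice and 1005, 1165 and 1107 in diseased-BWF1 mice. All 3 diseased-BWF1 values lay between the middle and the highest control value. The log2 fold change was 0.17 (SE 0.24, adjusted p = 0.812). Without control mouse 3 it was 0.48, with an unadjusted edgeR p of 0.0108 and an adjusted p of 0.205.

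IRE1 acts on Xbp1 by removing 26 bases from the mRNA, which shifts the reading frame and yields the active transcription factor. The segment lies in exon 4 within the coding sequence of the annotated transcript, at chr11:5524279-5524304 on the + strand (GRCm38). The window chr11:5524249-5524334 is shown before and after splicing because the counts were given for a record of each form, with the removed bases in capitals:
Xbp1 unspliced: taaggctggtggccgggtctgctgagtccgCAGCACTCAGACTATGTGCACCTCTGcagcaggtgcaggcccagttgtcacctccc
Xbp1 spliced: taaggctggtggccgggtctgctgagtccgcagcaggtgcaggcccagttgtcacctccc

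Which record is which form follows RefSeq's naming. The record of the spliced form held 255 of 1023, 200 of 699 and 200 of 1172 Xbp1 counts in control mice, and 323 of 1064, 283 of 1150 and 65 of 1098 in diseased-BWF1 mice. As shares these were 24.9% (95% Wilson interval 22.4 to 27.7), 28.6% (25.4 to 32.1) and 17.1% (15.0 to 19.3) in control mice. The diseased-BWF1 shares were 30.4% (27.7 to 33.2), 24.6% (22.2 to 27.2) and 5.92% (4.67 to 7.48). The highest and the lowest share were both in diseased-BWF1 mice. The group means of 23.5% ± 5.90 and 20.3% ± 12.8 (SD, n = 3) did not differ beyond this spread (exact two-sided permutation test, p = 0.8, where 3 mice against 3 cannot go below 0.1). Control mouse 3, with the highest Hspa5, had the lowest share of the control mice. Apart from this segment IRE1 leaves the mRNA as it is, and how reads common to both were divided between them is not given in the sources used here, so the intervals understate the error and a share is not a splicing level.

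**Figure D4:**
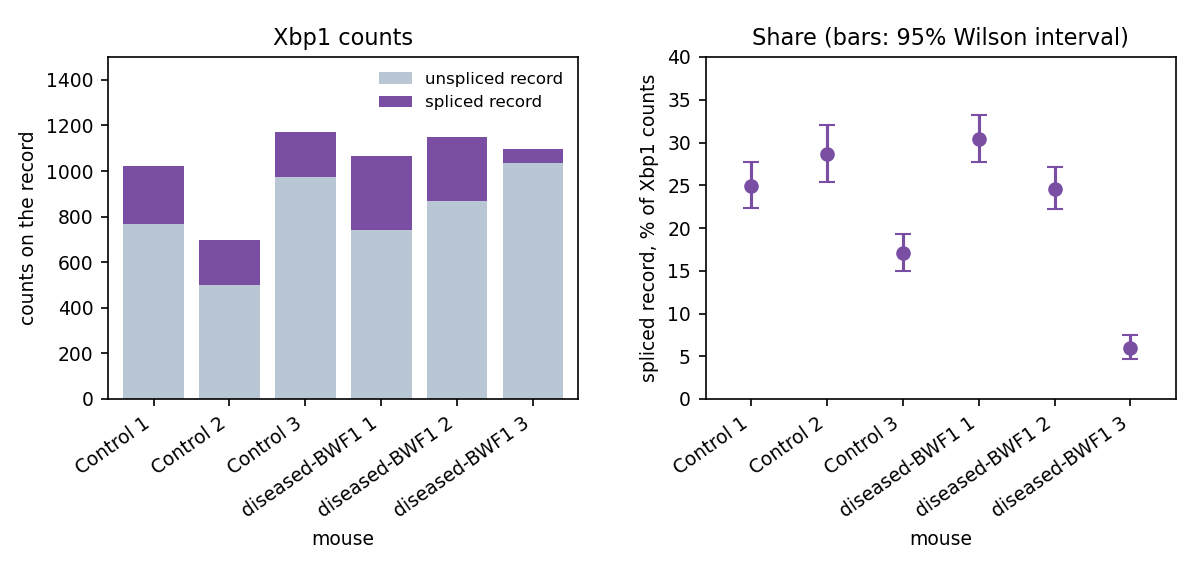
Counts on the unspliced and spliced Xbp1 records in each mouse (left, stacked bars) and the share on the spliced record in percent with 95% Wilson intervals (right). Shares lie between 17.1% and 30.4% in 5 mice and at 5.92% in diseased-BWF1 mouse 3.

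Downstream of PERK, Atf4 had 281, 309 and 369 normalized counts in control mice and 364, 395 and 400.4 in diseased-BWF1 mice. The highest control mouse lay within the range of the diseased-BWF1 mice, and the log2 fold change was 0.27 (SE 0.14, adjusted p = 0.47). ATF4 is controlled mainly through translation, which mRNA counts do not measure. Ddit3, which encodes the transcription factor CHOP, was low, with 18.2, 19.5 and 48.2 against 26.4, 21.3 and 25.2 normalized counts and a log2 fold change of -0.22 (SE 0.42, adjusted p = 0.866). The remaining members of this arm were below the count filter. Trib3, a pseudokinase induced by ATF4 and CHOP, had 2, 2 and 3 raw counts in control mice and 4, 7 and 7 in diseased-BWF1 mice. Asns, the asparagine synthetase, had 6, 10 and 3 against 3, 11 and 17. Chac1, which degrades glutathione, had 0 in 4 libraries and 1 in each of the others, all below the floor of 3 counts. Trib3 did not overlap between groups and Asns did. These 3 genes were not part of the test, and few counts stand behind each value.

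The translocon and glycosylation members carry new chains into the ER and attach sugars to them. Their log2 fold changes were 0.19 for Sec61a1, the channel subunit, -0.09 for Sec61b, 0.30 for Ssr1, a translocon-associated subunit, and 0.07 for Ostc, a subunit of oligosaccharyltransferase. All 4 had overlapping groups and adjusted p-values of at least 0.485. Ssr1 had 199 ± 34.1 and 246 ± 22.4 normalized counts, with only control mouse 1, at 161, far below the rest. Other genes hold 10.1% of the 75-base sequences of Sec61b.

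Between genes, levels were compared per kilobase of annotated transcript. On that scale Calr was the highest member in control mice, with 2710 ± 358 normalized counts per kilobase, followed by Hsp90b1 with 1977 ± 380.2, Pdia3 with 1773 ± 178 and Hspa5 with 1749 ± 794. Ern1 had 60.5 ± 30.5 and Ddit3 32.2 ± 19.1, and the lowest tested member was Ssr1 with 21.3 ± 3.65. The chaperones and isomerases at the top of this order were far above Ern1, Atf6 and Eif2ak3. Hsp90b1 was above Pdia3 in each control mouse, with 1712, 1806 and 2412 against 1667, 1674 and 1978. Hspa5 was below both in control mice 1 and 2, and above both in control mouse 3, with 1239, 1342 and 2664. Pdia6 and Canx, at 802 ± 53.7 and 765 ± 39, changed order between control mice. The order of genes within a mouse was not tested.

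Taken over all branches, 5 of the 31 tested members had groups that did not overlap, all lower in diseased-BWF1 mice (Pdia3, Calr, Canx, Pdia6 and Derl1), where 20.8% of all tested genes did not overlap in either direction. Control mouse 3 was the highest control in 25 of 31 members and at least 1.5 times the mean of the other controls in 8, against 10.7% of all tested genes and 6.15% of those with a mean of 100 or more normalized counts. Without this mouse 23 of 31 members had a positive fold change, where 51.5% of all tested genes did, and the median moved from 0.03 to 0.16. Then 8 members had an unadjusted edgeR p under 0.05, 6 higher and 2 lower, beside 6.29% and 7.42% of all genes in that fit. Of the members 0 were called, with 39 calls among all genes. The summed counts of handling and heat shock genes (immediate early genes and cytosolic heat shock proteins) were 749, 901 and 1570 in control mice and 3882, 1626 and 1407 in diseased-BWF1 mice. Control mouse 3 and diseased-BWF1 mouse 1, which were highest in most of the BiP system, were also highest of their groups in this sum. Gene by gene, this order did not hold for Fos and Egr1 in control mice. In diseased-BWF1 mice it did not hold for Egr1, Dnajb1 and Hspb1. The part of handling and heat shock in the members' values was not tested.

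A longer list of 104 further ER genes was read in the same fit, and 98 of them were tested. edgeR called 0 of them, and 11 had an unadjusted p under 0.05, 8 higher and 3 lower in diseased-BWF1 mice. Among all tested genes 13.2% were under that value, 5.62% higher and 7.57% lower. DESeq2 called 1, Mthfd2. Their median log2 fold change was 0.06. Groups did not overlap in 22, of which 16 were higher, against 9.59% of all tested genes in that direction. By branch, 3 of 12 were positive in the BiP system, 16 of 18 among lectin chaperones and isomerases, 10 of 19 in degradation, 5 of 8 among sensors and 16 of 26 in the translocon group. The plot of fold changes by branch for both lists shows the points most widely spread in the ATF4 arm.

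**Figure D5:**
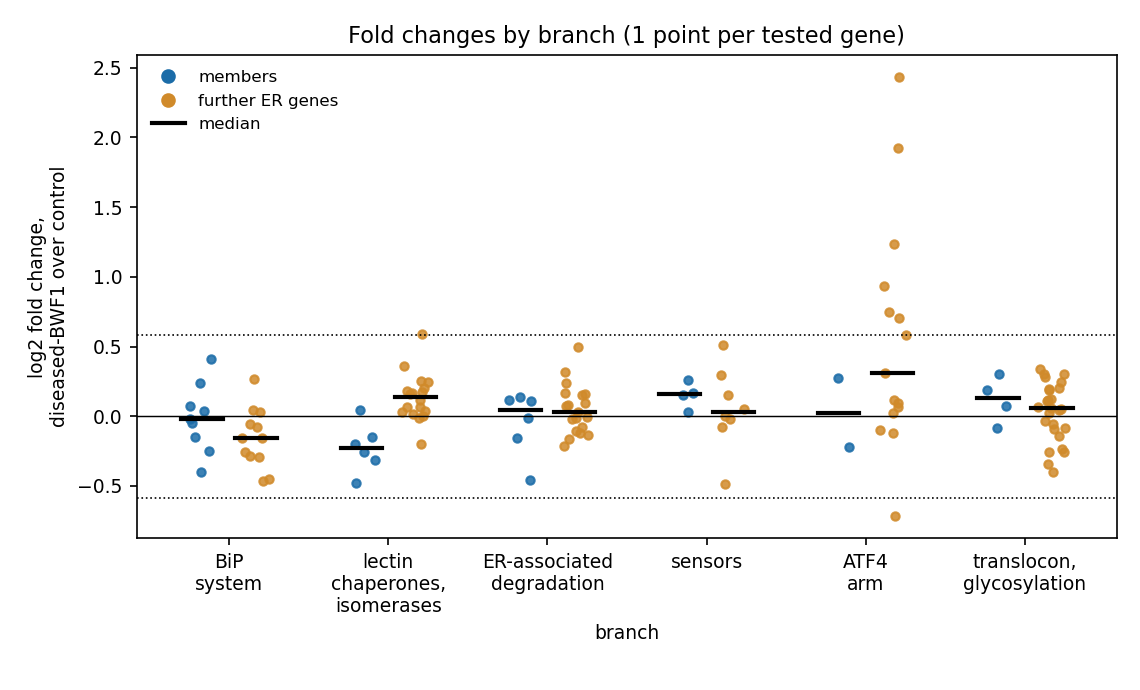
Log2 fold change, diseased-BWF1 over control, of the tested members (blue) and of the tested further ER genes (orange), 1 point per gene, by branch, with the median of each list as a black line and a 1.5-fold change as dotted lines. The members lie between -0.48 and 0.41, and the values above 0.6 belong to further genes of the ATF4 arm.

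Of the further genes, the 5 with the smallest p included a pair of the ATF4 arm. Mthfd2, a mitochondrial enzyme of the folate cycle and a known ATF4 target, had 5.79, 11.3 and 5.74 normalized counts in control mice and 18.9, 37.5 and 31.3 in diseased-BWF1 mice. The groups were well apart, with a log2 fold change of 1.92 (SE 0.43, adjusted p = 0.0944, edgeR), while DESeq2 gave an adjusted p of 0.038. Aldh18a1, which starts proline synthesis, had means of 23.6 ± 5.77 and 45.7 ± 3.37, also without overlap, with a fold change of 0.94 on the log2 scale (SE 0.25, adjusted p = 0.153). Of the 15 tested further genes of this arm 12 had a positive fold change, with a median of 0.31. An unadjusted edgeR p under 0.05 was found for 4, all higher, against 5.62% of all tested genes in that direction. The median was 0.32 without control mouse 3. Eif2ak1, which encodes the heme-regulated kinase HRI that also phosphorylates eIF2 alpha, had means of 316 ± 24.0 and 226 ± 10.3 and a log2 fold change of -0.49 (SE 0.12, adjusted p = 0.12). The others were H13, the signal peptide peptidase, at 0.50 (SE 0.15, adjusted p = 0.219), and Sec62, a translocon partner, at -0.40 (SE 0.14, adjusted p = 0.266). The paper lists H13 among its upregulated genes, whereas neither edgeR nor DESeq2 called it here. The paper does not state how it summed transcript records, so its H13 counts may differ from the gene sums used here.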

How the data were processed

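RNA from sorted PMs of 6 mice was made into stranded mRNA libraries and sequenced in pairs of 75-base reads. For each mouse the authors deposited estimated counts per RefSeq transcript record as whole numbers, without normalization. The submitters' processing notes name Salmon 0.8.0, DESeq2 and GRCm38.p6, with no role given for each. Of 107193 records, 45754 matched a gene of the RefSeq table by accession and version and 40712 by accession alone, and their counts were summed per gene. The 20727 unmatched records were left out, and 89.1% to 93.0% of a library's counts remained.

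Genes were filtered with filterByExpr, scaled by TMM and tested with edgeR 4.0.16 in R 4.3.3, with no covariate. The thresholds were those of the study's methods. Normalized counts used DESeq2 1.42.0 size factors (0.871 to 1.21), and errors are SDs over mice. Log2 CPM used a prior count of 2. The 95% intervals use edgeR's moderated degrees of freedom. Gene positions and lengths are from GENCODE vM21. Motifs were sought by exact letters. The code was tested on simulated data.

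The members, branches and lists were chosen with earlier results of these data known, so no list was given a test of its own. Per-mouse values were printed for members with an unadjusted p under 0.05, the sensors, Hspa5, Xbp1, Atf4, Ddit3 and members below the filter, and for others that illustrate a branch. The latter were chosen after their values were seen. Marker lists not named in the report (T cell, neutrophil, mast cell and mesothelium) summed to at most 12.3, 31.0, 2.30 and 2.48 normalized counts in any mouse. A marker gene is not reported here. No library was a copy of another, since per gene the squared difference of the closest pair was 9.69 times what sampling alone gives. Whether mice of a group shared a litter is not stated, and p-values measure the spread between these mice. The alternatives were DESeq2, limma-voom 3.58.1, other scaling factors, other filters, robust dispersion, age as a covariate, the replicate number as a block, curated records alone and each mouse left out.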

Additional observations from a re-analysis of the deposited data

How the results depend on the processing

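The count of called members was 0 under every alternative. The call of the further ER genes was 1 with DESeq2 and 0 otherwise. All genes called numbered 370 with DESeq2, 259 without a low-count filter, 84 with at least 10 counts in every library and 19 on curated records alone, and 21 to 51 with 1 mouse left out. With the replicate number as a block 38 genes and 0 members were called. Deviations of same-numbered mice of the groups correlated at 0.117, 0.00556 and 0.157, and those of differently numbered mice at -0.144 to 0.0573. The deviations were taken from a mean of only 3 mice, so these values cannot decide whether the numbers pair the mice. With each mouse left out in turn, medians ranged from -0.16 to 0.16 for the members, from -0.22 to 0.41 for the BiP system and from -0.15 to 0.38 for the ATF4 arm, and the difference in the spliced Xbp1 share from -8.27 to 3.95 percentage points, the last without diseased-BWF1 mouse 3. The signs of small fold changes turned: Hspa5 had 0.030 with library totals only, 0.043 with the block, 0.067 with age and 0.034 with limma-voom, Manf 0.0033, 0.099, 0.10 and 0.10, and Herpud1 0.033, 0.19, 0.17 and 0.20 in the same order. With 1 mouse left out the fold changes that turned ranged as follows, lowest to highest: Creld2 -0.57 to 0.26, Ddit3 -0.48 to 0.37, Derl2 -0.28 to 0.055, Dnajb11 -0.064 to 0.24, Dnajb9 -0.16 to 0.46, Eif2ak3 -0.049 to 0.092, Ern1 -0.21 to 0.39, Herpud1 -0.34 to 0.70, Hsp90b1 -0.25 to 0.020, Hspa5 -0.23 to 0.42, Manf -0.28 to 0.59, Ostc -0.065 to 0.25, P4hb -0.014 to 0.089, Sec61b -0.21 to 0.022, Syvn1 -0.081 to 0.44 and Xbp1 -0.0027 to 0.48. Without control mouse 3 the changes of Hspa5, Manf, Creld2, Herpud1 and Ddit3 took their highest values. The cause was not tested. No other call of the members changed under any alternative. With 3 mice in each group, the 95% interval of 19 members still held a 1.5-fold change. Members on predicted records (Hyou1, Atf6) and the Xbp1 forms also depend on how shared reads were assigned.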
